A study of Mus musculus with 14 samples.

Results

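The MHC class II genes of the mouse were followed in RNA-Seq libraries of 8 livers from mice with pancreatic ductal adenocarcinoma (PDAC) and of 6 cultures of pancreatic stellate cells (PSCs). The 7 genes were taken by name: Cd74, H2-Aa, H2-Ab1, H2-Eb1, H2-DMa, H2-DMb1 and Ciita. All 7 were among the 54532 genes of the liver table, and all passed the filter on low counts. The PSC table listed 5 of them, all tested among 15145 genes, and did not list H2-Aa or Ciita. Livers were from 2 WT mice without GSK219, 3 TRPV4-KO and 3 GSK219-treated WT mice. The WT mice carried floxed Piezo1 alleles (Piezo1 fl/fl). TRPV4-KO mice lacked the channel in every tissue, whereas the 100000 KPCY cells injected into the tail of each pancreas, a mouse PDAC line that expresses a yellow fluorescent protein, kept it. The mice were between 8 and 12 weeks old and of both sexes, and livers were taken 20 days after the injection. GSK219 (GSK2193874), an antagonist of TRPV4, was given by gavage every day at 10 mg/kg, and it is not stated whether the WT mice received its carrier. PSCs, the fibroblast-like cells of the pancreas that become cancer-associated fibroblasts (CAFs), were grown on Matrigel-coated plates, and 3 preparations were each treated with DMSO and with the PIEZO1 agonist Yoda1 at 25 μM. Their treatment time is given as 24 hours in one place and as 72 hours in another, and their genotype is not given.

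MHC class II molecules carry peptides from the endosome to the cell surface, where CD4+ T cells read them. H2-Aa and H2-Ab1 encode the α and β chains of I-A, and H2-Eb1 encodes the β chain of I-E. Cd74 encodes the invariant chain, which holds the groove of a new molecule closed and steers it to the endosome, and H2-DMa and H2-DMb1 encode the DM dimer that swaps the last invariant chain fragment for a peptide. Ciita encodes the transactivator that drives the transcription of the other genes. Dendritic cells, B cells and many macrophages express these genes, and in the liver Kupffer cells do so as well. In PDAC, a subset of CAFs that expresses CD74 and MHC class II genes has been named antigen-presenting CAFs (apCAFs), and such cells have been traced to mesothelial cells.

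Between 15567031 and 17395299 reads were counted per liver, and between 27312894 and 39070539 per PSC library. The targeted gene Trpv4 had 43 and 53 counts in the WT livers, 15, 5 and 23 in the TRPV4-KO livers and 20, 30 and 36 in the GSK219 livers, with an adjusted p of 0.16 between WT and TRPV4-KO by edgeR. Xist was read in 3 livers, namely WT replicate 1, replicate 3 of TRPV4-KO and GSK219 replicate 3, while the 5 others held Y-linked transcripts. Livers of a group stood apart in many genes, and TRPV4-KO replicate 3 changed the number of calls most when it was left out. The p-values measure the spread between these libraries.

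Cd74 was the most abundant of the 7 genes in the liver, and Ciita the least. To compare genes, counts scaled to a common library size (CPM, by the TMM method) were divided by the length of each gene in kilobases. The mean over the 8 livers was 147 ± 72.3 (SD, n = 8) CPM per kilobase for Cd74, 49.2 ± 30.6 for H2-Eb1, 42.6 ± 24.5 for H2-Ab1 and 36.1 ± 21.9 for H2-Aa. H2-DMa, H2-DMb1 and Ciita were at 5.80 ± 2.04, 5.27 ± 2.81 and 0.82 ± 0.44 (SD, n = 8) CPM per kilobase. The SDs of the 3 I-A and I-E genes exceed the gaps between their means, yet within every one of the 8 livers the order was Cd74, H2-Eb1, H2-Ab1, H2-Aa. H2-DMa was above H2-DMb1 in 5 of the 8 livers, so the order of the DM genes was not fixed. Among the 15118 genes tested, the mean CPM of Cd74 stood at the 95.6th percentile, that of H2-Ab1 at the 85.6th, and those of H2-DMa, H2-DMb1 and Ciita between the 40.5th and the 43.8th. In the coordinates of the deposited table (GRCm38), Cd74 (ENSMUSG00000024610) lies on chromosome 18 from 60803848 to 60812646 and Ciita (ENSMUSG00000022504) on chromosome 16 from 10480059 to 10528418, both on the plus strand. Ciita overlaps Dexi on the opposite strand, and because it is not stated whether strand was used in counting, reads of the overlap cannot be told apart. An exon of H2-DMa likewise overlaps Brd2 on the opposite strand in the GENCODE annotation, though not in the coordinates of the deposited table, and Cd74 overlaps Mir5107 on its own strand.

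Each liver had its own level of MHC class II expression, which the 7 genes followed, H2-DMa least closely. Cd74 had 4609 and 1958 counts in the WT livers, 3475, 2778 and 6955 in the TRPV4-KO livers, and 1165, 3418 and 2948 in the GSK219 livers. H2-Ab1 had 1425 and 597 counts in WT, 1278, 1016 and 2649 in TRPV4-KO, and 385, 1007 and 844 in GSK219 livers. For both genes TRPV4-KO replicate 3 was the highest of the 8 livers and GSK219 replicate 1 the lowest, and the same was true of H2-Aa, H2-Eb1, H2-DMb1 and Ciita. H2-DMa had 251 and 136 counts in WT, 136, 102 and 229 in TRPV4-KO, and 87, 155 and 157 in GSK219 livers, so that for this gene WT replicate 1 was the highest. From the lowest to the highest liver the CPM differed 7.31-fold for H2-Eb1, 7.30-fold for H2-Aa, 6.33-fold for H2-Ab1, 5.49-fold for Cd74 and 2.84-fold for H2-DMa. The log2 CPM of each gene was correlated with the mean of the other 6 over the 8 livers as a description. Pearson's r was 0.99 for Cd74 (Spearman's rho 1), between 0.94 and 0.98 for H2-Aa, H2-Ab1, H2-Eb1, H2-DMb1 and Ciita, and 0.82 for H2-DMa (rho 0.76). Without the highest and the lowest liver (TRPV4-KO replicate 3 and GSK219 replicate 1), r was 0.96 for Cd74, 0.93 for H2-Ab1, 0.75 for H2-DMb1 and 0.62 for H2-DMa. These livers share group, sex reads and cell content, which were not separated in the correlation.

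**Figure D1:**
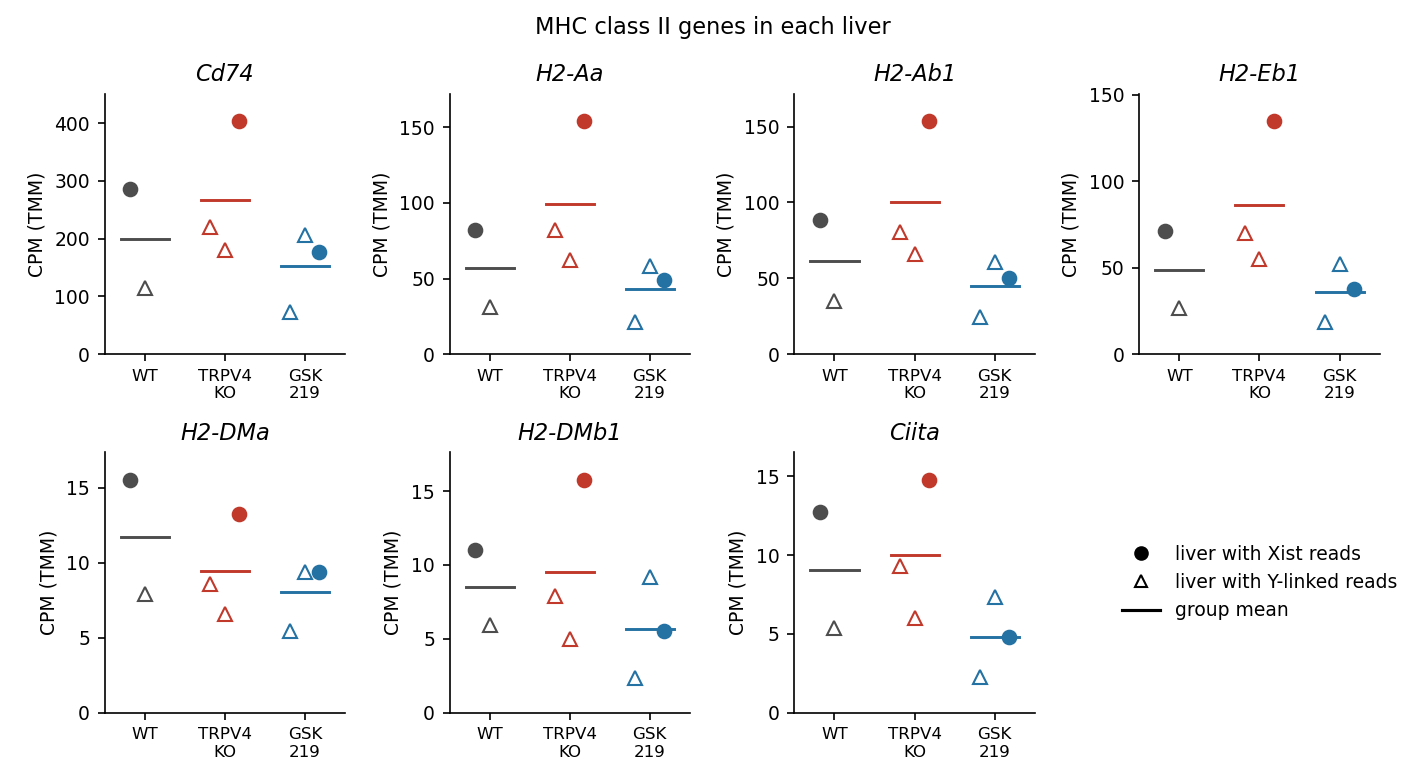
CPM (TMM-scaled, y axis) of the 7 genes in each of the 8 livers, by group, with the group mean as a line. Filled circles are livers with Xist reads and open triangles livers with Y-linked reads. In 6 of the panels TRPV4-KO replicate 3 is the highest point and in all 7 GSK219 replicate 1 is the lowest. The order of the 8 livers is similar between panels, least so for H2-DMa.

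The genes of the I-A and I-E chains and of DM lie in the MHC on chromosome 17, and a pair of short motifs was looked for in the promoters at hand. The genes' levels varied together across livers, which is why their promoters are shown. RefSeq promoters of GRCm38.p6, each 300 bases from 250 before the start of transcription to 50 after it, were at hand for H2-Aa, H2-Eb1 and H2-DMb1 and, outside the 7 genes, for H2-Oa and H2-Ob. The RefSeq start of H2-DMb1 lies 119 bases from the start in the deposited table, against 2 to 39 bases for the 4 others, and the table's 2 entries for H2-DMa lie 9664 and 12350 bases from the start of the gene in the deposited table. The X half-site was searched as CTNGNAAC and the Y box as GATTGG, on both strands, with letters chosen after the sequences had been read. The pair was found in 4 of these promoters, those of H2-Aa, H2-Eb1, H2-DMb1 and H2-Ob. By these letters, those of H2-Oa and both H2-DMa entries held 0 X half-sites. The H2-Oa promoter does hold ccagcaac upstream of a Y box, with c where the searched letters ask for T. Its absence from the 4 thus rests on the letters chosen. In each of the 4 stretches below, printed 5′ to 3′ on the gene's strand from 8 bases before the X half-site to 8 bases after the Y box, the capitals mark first the X half-site and then the Y box.
H2-Aa: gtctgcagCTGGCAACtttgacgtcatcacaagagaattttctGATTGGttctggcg
H2-Eb1: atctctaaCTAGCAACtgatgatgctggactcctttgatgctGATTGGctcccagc
H2-DMb1: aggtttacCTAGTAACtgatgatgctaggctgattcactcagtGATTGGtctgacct
H2-Ob: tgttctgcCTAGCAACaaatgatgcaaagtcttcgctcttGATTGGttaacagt
The stretch of H2-Aa is at chr17:34287859-34287915 on the minus strand, that of H2-Eb1 at chr17:34305765-34305820, that of H2-DMb1 at chr17:34153086-34153142 and that of H2-Ob at chr17:34238807-34238860, all 3 on the plus strand. The half-site began 84 bases before the RefSeq start in H2-Aa, 94 in H2-Eb1, 97 in H2-DMb1 and 90 in H2-Ob, and the Y box followed after 27, 26, 27 and 24 bases. In the coordinates of the deposited table the H2-DMb1 stretch lies just inside the gene, downstream of its start. Of the 32851 promoters in the table, 13.2% held the X half-site and 16.1% the Y box, while 0.158% (52 promoters) held the X half-site followed by the Y box within 40 bases. A match of letters is a description of these promoters and not a measurement of binding.

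The gene bodies of H2-Aa (ENSMUSG00000036594) at positions 34282744 to 34287827 on the minus strand, H2-Ab1 (ENSMUSG00000073421) at 34263209 to 34269418 and H2-Eb1 (ENSMUSG00000060586) at 34305877 to 34316199 neighbor each other on chromosome 17. H2-DMa (ENSMUSG00000037649) at 34135182 to 34139101 and H2-DMb1 (ENSMUSG00000079547) at 34153072 to 34160230 lie at lower coordinates of the same chromosome. H2-DMb2, a close relative of H2-DMb1, had between 11 and 73 counts in the livers against 37 to 272 for H2-DMb1, and reads that fit both could have been given to either. The pseudogene of the I-E α chain, H2-Ea-ps, was at 0 counts in all 8 livers, which allows up to 3 counts in each.

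WT and TRPV4-KO livers were compared to ask how loss of TRPV4 bears on the livers of tumor-bearing mice. For the MHC class II genes no difference was larger than the spread between livers. Of the 7 genes, 0 passed the threshold, an adjusted p under 0.05 with a log2 fold change over 1 (edgeR's quasi-likelihood test on all 8 livers, Benjamini-Hochberg adjustment over 15118 genes). By the same rule 0.265% of all genes passed (40 genes). The genes of the peptide-binding chains had the lower means in WT, with H2-Ab1 at 61.5 ± 37.7 CPM in WT (SD, n = 2) against 100 ± 46.8 in TRPV4-KO livers (SD, n = 3). The log2 fold change (log2FC) of WT over TRPV4-KO was thus -0.70, with a standard error (SE) of 0.56 and an edgeR adjusted p of 0.58. H2-Aa averaged 56.8 ± 36.2 and 99.4 ± 48.2 CPM (log2FC -0.81, SE 0.61), and H2-Eb1 48.9 ± 31.5 and 86.6 ± 42.4 CPM (log2FC -0.83, SE 0.61). Within each group the livers lay further apart than these means. For Cd74 the log2FC was -0.42 (SE 0.57), from 199.6 ± 121 CPM in WT against 268 ± 119 in TRPV4-KO livers. H2-DMb1 and Ciita were closer to 0 at -0.17 and -0.15, and H2-DMa stood on the other side at 0.30 (SE 0.39). The adjusted p of the 7 genes lay between 0.54 and 0.92. Their median log2 fold change was -0.42 against -0.01 over all genes, 6 of them were below 0, and the ranges of the 2 groups overlapped for all 7, whereas they did not overlap for 33.2% of all genes. Without WT replicate 2 or without TRPV4-KO replicate 3 the values of Cd74, H2-DMb1 and Ciita were above 0, and without WT replicate 1 that of H2-DMa was below 0. The values of H2-Aa, H2-Ab1 and H2-Eb1 stayed below 0, from -1.65, -1.51 and -1.68 without WT replicate 1 to -0.25, -0.17 and -0.27 without WT replicate 2.

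WT livers were also compared with livers of WT mice given GSK219, an antagonist of the channel, whose block was not measured in these data. The comparison shares its WT livers with the one above. All 7 genes had the higher mean in WT, with log2 fold changes of WT over GSK219 from 0.39 for Cd74 to 0.91 for Ciita and a median of 0.44, where the median of all genes was close to 0. Of the 7 genes, 0 passed the threshold, as did 0% of the 15118 genes tested by edgeR, of which 8.22% had an unadjusted p under 0.05. For Ciita, 206 and 92 reads were counted in WT against 36, 122 and 80 in GSK219 livers, which is 9.05 ± 5.22 (SD, n = 2) and 4.81 ± 2.55 (SD, n = 3) CPM. It had the smallest p of the 7, with an edgeR adjusted p of 0.75 (SE 0.56), and GSK219 replicate 2 was above WT replicate 2. The ranges of the groups overlapped for all 7 genes, against 27.3% of all genes without overlap. Without WT replicate 1 the direction turned for 5 of the 7 genes, Cd74, H2-Aa, H2-Ab1, H2-Eb1 and H2-DMa. Ciita was then at 0.15, and at 1.401 without WT replicate 2, and H2-DMb1 ran from 0.060 without WT replicate 1 to 1.10 without GSK219 replicate 2.

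TRPV4-KO and GSK219 livers, from mice without TRPV4 and from mice given its antagonist, stood furthest apart in the peptide-binding chains. H2-Eb1 had 70.1, 54.9 and 135 CPM in the TRPV4-KO livers and 18.4, 52.4 and 38.0 in the GSK219 livers. H2-Aa had 82.1, 62.3 and 154 CPM in TRPV4-KO and 21.1, 58.7 and 49.3 in GSK219 livers. In both genes every TRPV4-KO liver was above every GSK219 liver, but the lowest of the former and the highest of the latter lay close together, and the same was true of H2-Ab1. The log2FC of TRPV4-KO over GSK219 was 1.25 for H2-Eb1 (SE 0.54), 1.21 for H2-Aa (SE 0.54) and 1.15 for H2-Ab1 (SE 0.50). Ciita followed at 1.06, Cd74 at 0.82, H2-DMb1 at 0.75 and H2-DMa at 0.23. The adjusted p of the 7 genes lay between 0.82 and 0.98 by edgeR, and 0 of the 7 passed the threshold, which 0.0992% of all genes passed (15 genes). Of all genes, 10.2% had groups that did not overlap, which was the case for these 3 of the 7, and 6.12% had an unadjusted p under 0.05, which 0 of the 7 had. The median of the 7 genes was 1.06, against 0.01 over all genes. Without TRPV4-KO replicate 3 the values for H2-Eb1, H2-Aa and H2-Ab1 were 0.78, 0.75 and 0.70.

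**Figure D2:**
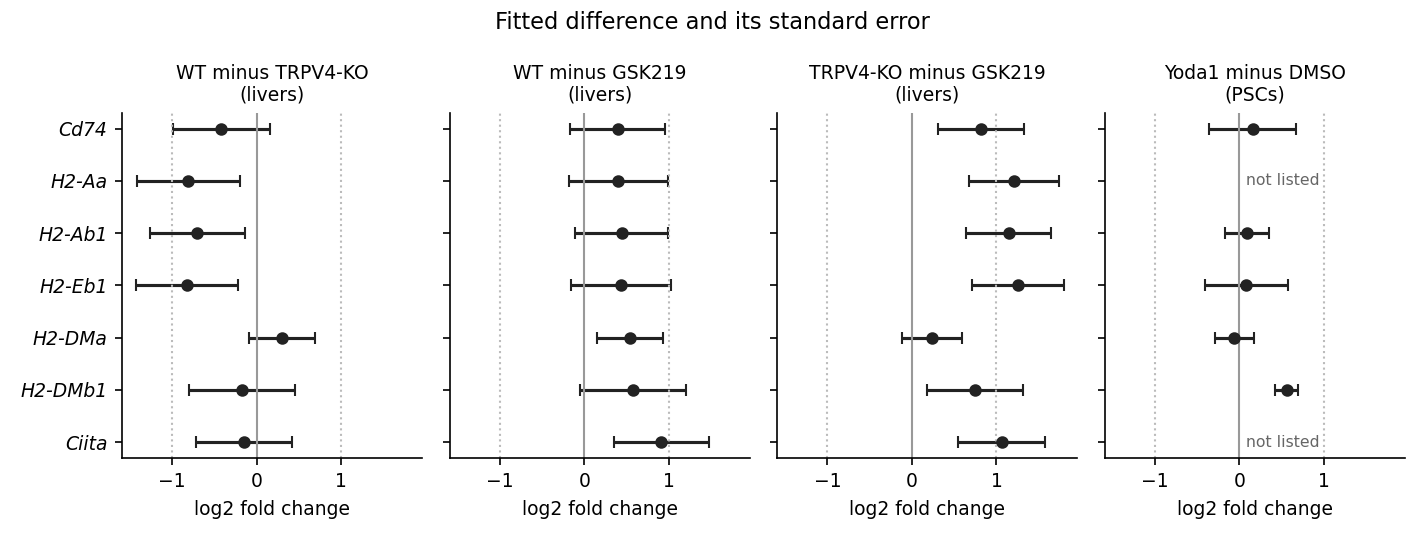
Fitted log2 fold change (x axis, point) and its standard error (bar) of each gene in the 3 liver comparisons (edgeR) and in PSCs (limma on log2(value + 1)). Dotted lines mark a log2 fold change of 1 in either direction, and genes not listed in the PSC table are named as such. The liver bars are wide, H2-DMa differs in side from the other genes in WT against TRPV4-KO, and H2-DMb1 in PSCs has a short bar that stays above 0.

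The proportions of the 7 genes within each liver were also compared. The CPM of Cd74 divided by the summed CPM of H2-Aa, H2-Ab1 and H2-Eb1 was 1.18 and 1.23 in the WT livers, 0.94, 0.98 and 0.91 in the TRPV4-KO livers, and 1.15, 1.20 and 1.28 in the GSK219 livers. All 3 TRPV4-KO livers were below all 5 others. The summed level of the 3 chains was 242 CPM in WT replicate 1 and 233 CPM in TRPV4-KO replicate 1. How the ratio depends on this level was not tested. H2-DMa divided by H2-Ab1 was 0.18 and 0.23 in WT, 0.11, 0.10 and 0.086 in TRPV4-KO, and 0.23, 0.15 and 0.19 in GSK219 livers. By this measure WT was 2.06-fold and GSK219 1.91-fold above TRPV4-KO, again without overlap. Ciita divided by H2-Ab1 divided the groups otherwise, with 0.14 and 0.15 in WT against 0.12, 0.092 and 0.096 in TRPV4-KO and 0.094, 0.12 and 0.095 in GSK219 livers. H2-Aa and H2-Ab1, whose products pair in I-A, stayed between 0.87 and 1.02 of each other in all 8 livers. An exact two-sided permutation test of the log2 ratio gave p = 0.1 between TRPV4-KO and GSK219 and p = 0.2 between WT and TRPV4-KO for both Cd74 over the 3 chains and H2-DMa over H2-Ab1. These are the smallest p that 3 livers against 3 and 2 against 3 can give, so neither could pass 0.05. These ratios were chosen after their values were seen, out of 6 that were compared. All 6 had WT livers that did not overlap with TRPV4-KO livers. Of all other tested genes, 26.8% had WT above TRPV4-KO without overlap when divided by H2-Ab1, and 28.1% when divided by the 3 chains. When divided by H2-Ab1, 0.304% had WT below, as H2-Aa and H2-Eb1 had. The groups lay close together there, with H2-Aa over H2-Ab1 at 0.93 and 0.90 in WT against 1.02, 0.95 and 1.00 in TRPV4-KO livers. These shares cover genes that do not follow H2-Ab1, so they are no like yardstick for genes that do. Between TRPV4-KO and GSK219 livers, 53.0% of genes over H2-Ab1 and 51.8% over the 3 chains had TRPV4-KO below without overlap. Between WT and GSK219 livers, 3.03% of genes over H2-Ab1 had WT above without overlap, as Ciita had. A ratio does not say which of its genes differed.

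**Figure D3:**
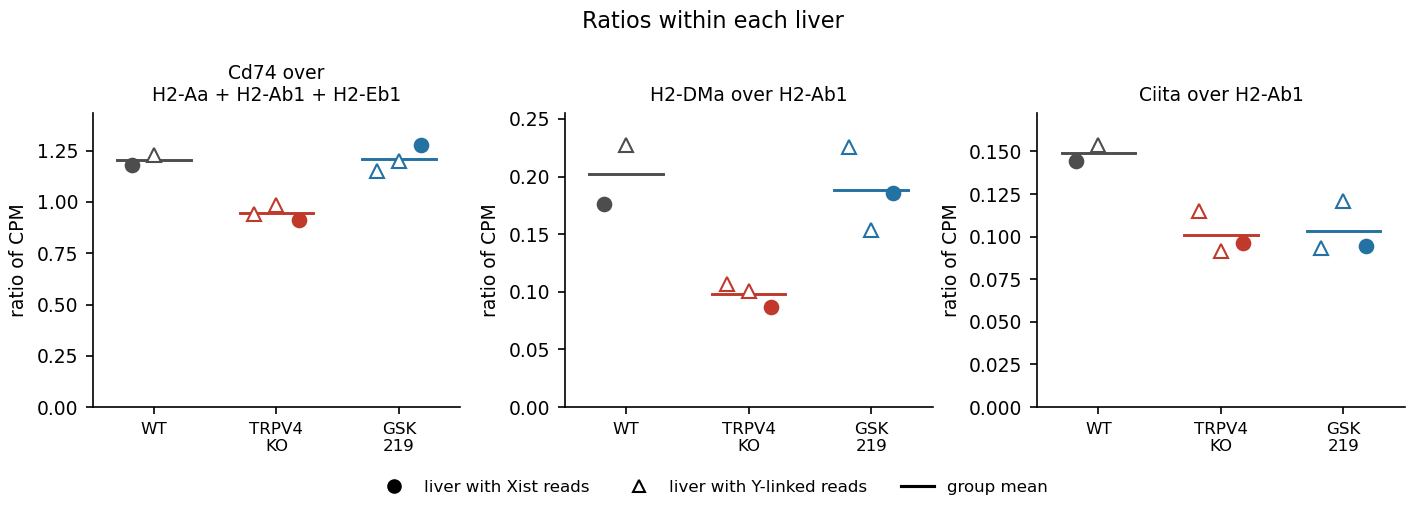
Ratios of CPM (y axis, from 0) within each liver, by group, with group means as lines and the symbols of sex reads as in the plot of CPM by liver. In the first panel the TRPV4-KO livers lie between 0.91 and 0.98 and the 5 others between 1.15 and 1.28, in the second the TRPV4-KO livers are again the lowest 3, and in the third WT is the highest.

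Livers with Xist reads had the higher fitted levels of all 7 genes, with 0 of them past the threshold. With a term for the kind of sex reads in the edgeR fit of the 8 livers, all 7 genes had the higher fitted level in the 3 livers with Xist reads, from 0.69 log2 for H2-DMa to 0.91 for H2-Aa. The mean of H2-Ab1 was 97.3 CPM in the 3 livers with Xist reads and 53.3 CPM in the 5 with Y-linked reads. Of the 7 genes, 0 had an adjusted p under 0.05 (0.11 to 0.38 by edgeR), and 4 had an unadjusted p under 0.05, as did 22.2% of all genes. By the threshold used above, 1.91% of all genes passed for this term. In the GSK219 group the liver with Y-linked reads and replicate number 2 was above the one with Xist reads for 6 of the 7 genes. Since each group held 1 liver with Xist reads, groups were also set side by side within each kind. H2-Ab1 in TRPV4-KO was 1.74-fold that in WT among livers with Xist reads (1 liver each) and 2.11-fold among those with Y-linked reads (2 livers against 1). For H2-Eb1 these values were 1.89-fold and 2.35-fold, and for Cd74 1.41-fold and 1.75-fold. Against GSK219, H2-Ab1 in TRPV4-KO was 3.04-fold and 1.72-fold. WT over GSK219 turned between the kinds for the 4 most abundant genes, with H2-Ab1 at 1.75-fold among livers with Xist reads and 0.82-fold among the others, and Cd74 at 1.62-fold and 0.82-fold. For H2-DMa the TRPV4-KO livers were at 0.85 and 0.96 of WT, so this gene stayed apart from the chains within both kinds. With the sex term in the fit, 0 of the 7 genes passed the threshold in any comparison of livers.

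Markers of cells that express MHC class II genes followed the 7 genes in part. The macrophage, pan-leukocyte and dendritic cell sums had another order of group means than the 7 genes, and the B cell sums had the same order, TRPV4-KO above WT above GSK219. The summed CPM of the 7 was 566 and 226 in the WT livers, 479, 381 and 888 in TRPV4-KO, and 147, 404 and 334 in GSK219 livers. The 13 macrophage and Kupffer cell markers summed to 2480 and 2123 CPM in WT, to 834, 606 and 1310 in TRPV4-KO, and to 641, 1156 and 1522 in GSK219 livers. Both WT livers were thus above all others in these markers, while WT replicate 2 had the second lowest sum of MHC class II genes. All 13 had log2 fold changes above 0 for WT over TRPV4-KO (median 1.36), and 0 of them passed the threshold by edgeR. The 7 pan-leukocyte markers behaved alike, with 286 and 226 CPM in WT, 75.2 to 156 in TRPV4-KO and 74.4 to 164 in GSK219 livers. The 12 dendritic cell markers summed to 218 and 167 CPM in WT, to 140.4, 123 and 162 in TRPV4-KO, and to 135, 159 and 166 in GSK219 livers. Within the WT and within the TRPV4-KO livers, the macrophage and the dendritic cell sums had the same order as the sum of the 7 genes, and in the GSK219 group replicate 1 was the lowest in all 3 sums. The 10 B cell markers summed to 29.1 and 34.2 CPM in WT, to 22.1, 28.8 and 63.3 in TRPV4-KO, and to between 17.0 and 22.95 in GSK219 livers. TRPV4-KO replicate 3 thus had the highest sum of both B cell markers and MHC class II genes, while both WT livers were above the 2 other TRPV4-KO livers in the B cell sum. H2-Oa, part of the DO dimer that B cells make to restrain DM, had 28 counts in that liver and between 2 and 6 in the 7 others. H2-Ob, its partner, had 41 and 15 counts in WT, 18, 28 and 92 in TRPV4-KO, and 11, 19 and 30 in GSK219 livers. For WT over TRPV4-KO the 10 B cell markers had a median log2FC of -1.79, with 2 above 0 and 0 past the threshold. The 4 of smallest p were Cd79a (-1.87), Ighd (-1.90), Bank1 (0.73) and Ms4a1 (-1.93). For TRPV4-KO over GSK219, where the 7 genes had a median of 1.06, the B cell markers had a median of 1.303 with 10 of 10 above 0, the dendritic cell markers 0.20 with 7 of 11 above 0, and the macrophage markers -0.28 with 0 of 13 above 0, and 0 of these passed the threshold by edgeR. None of the 13 macrophage, 10 B cell or 12 dendritic cell markers was at 0 counts in all livers. Whether more cells of a type or more RNA per cell lay behind a level cannot be told apart in bulk tissue, and the part of these cells in the levels of the 7 genes was not tested.

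**Figure D4:**
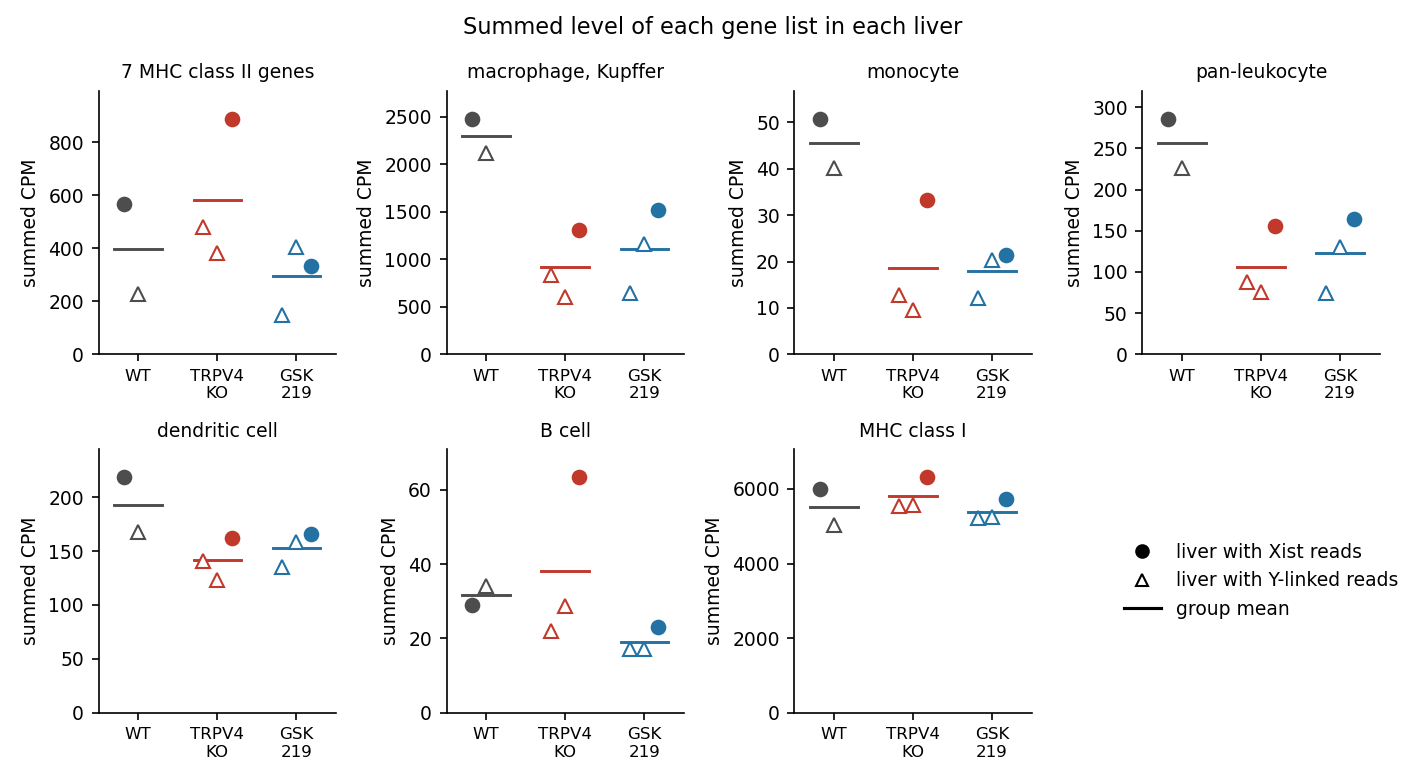
Summed CPM (y axis, from 0) of the 7 MHC class II genes and of 6 gene lists in each liver, with group means as lines and the symbols of sex reads as before. The macrophage and pan-leukocyte sums are highest in the 2 WT livers, the B cell sum and the MHC class II sum are highest in TRPV4-KO replicate 3, and the MHC class I sum stays between 5028 and 6314 CPM.

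Partner genes of the pathway were taken from lists, each described by its count and median. Of 22 names of class II pathway partners, 17 were tested in livers, 0 passed the threshold in any liver comparison, and the median log2 fold change of WT over TRPV4-KO was 0.32, with 11 above 0. The 4 partners of smallest p all had positive values, none past the threshold. Ctss, which encodes the cathepsin S that trims the invariant chain, had 125 and 109 CPM in WT, 41.4, 27.4 and 65.3 in TRPV4-KO, and 29.3, 63.1 and 72.2 in GSK219 livers, which gave a log2FC of 1.39 for WT over TRPV4-KO (adjusted p = 0.18 by edgeR). Lgmn, a protease of the endosome, had 1.04, Ifi30, a thiol reductase of the endosome, had 1.01, and March1, which marks MHC class II molecules for removal, had 1.404. WT and TRPV4-KO livers did not overlap in these 4 and in 6 further partners, 10 of the 17, against 33.2% of all genes. Among the 10, March8, which encodes a relative of the product of March1, stood on the other side (log2FC -0.56, adjusted p = 0.22 by edgeR). Of the 8 tested genes of co-stimulation and inhibition, 0 passed and 8 were above 0 in WT over TRPV4-KO (median 1.16), among them Cd80 at 1.43 and Cd86 at 1.25, the ligands of CD28. Of 21 tested genes of the interferon-γ pathway, the main known inducer of Ciita, 0 passed, with 16 above 0 and a median log2FC of 0.15 for WT over TRPV4-KO, and Ifng itself had 1 count in all 8 livers together. Ifngr1, which encodes a chain of the interferon-γ receptor, had the smallest p, with 42.9 and 33.6 CPM in WT, 23.6, 17.0 and 23.5 in TRPV4-KO, and 18.9, 25.8 and 27.9 in GSK219 livers (log2FC 0.84 for WT over TRPV4-KO, adjusted p = 0.14 by edgeR). Igtp, an interferon-induced GTPase, had 44.9 and 19.0 CPM in WT, 69.7, 63.1 and 92.6 in TRPV4-KO, and 28.3, 28.3 and 43.2 in GSK219 livers, so that all TRPV4-KO livers were above the 5 others. The log2FC of Igtp was -1.23 for WT over TRPV4-KO (adjusted p = 0.18) and 1.18 for TRPV4-KO over GSK219 (adjusted p = 0.53 by edgeR). Of 21 genes of MHC class I presentation, 0 passed in livers, with a median of 0.02 for WT over TRPV4-KO. H2-Q7 and H2-Q6, class I genes of the same chromosome, had -0.64 and -0.69 in that comparison.

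Genes linked to apCAFs and to mesothelial cells gave 0 calls in livers. Of 6 apCAF companion genes, 0 passed, with a median log2 fold change of 0.24 for WT over TRPV4-KO, and Ezr (0.76) and Slpi (0.89) had WT livers that did not overlap with TRPV4-KO livers, 2 of the 6 against 33.2% of all genes. Of 11 mesothelial markers, 0 passed, and the median was -0.11. The 12 fibroblast and stellate markers had a median of 0.90 with 11 above 0, and Col3a1 had the smallest p among them (120 CPM in WT and 33.3 in TRPV4-KO, log2 fold change 1.85, adjusted p = 0.14 by edgeR). Of the further lists, 0 of 11 T and NK cell, 0 of 8 liver endothelial and 0 of 8 hepatocyte markers passed in WT against TRPV4-KO, and 1 of 7 monocyte markers did, F13a1, at 2.32 CPM in WT and 0.41 in TRPV4-KO (log2FC 2.47, adjusted p = 0.0499 by edgeR).

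By their log2 CPM over the 8 livers, the genes most like the mean of the 7 were sought among 13208 genes with a mean of at least 1 CPM. Lama4, which encodes a laminin chain of vessel walls, had the highest Pearson's r at 0.98, with between 4.53 and 10.0 CPM. Pkn3, Rbm41, Acap1, Glb1, Ifi44, Ccdc102a and Gm44744 followed with r from 0.96 to 0.91. These are the highest of many correlations over the same 8 livers and were not tested. Each holds for livers that also differ in group and in sex reads.

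PSCs held little MHC class II RNA. Between 29 and 116 reads of Cd74 were recovered per library, 39 to 85 of H2-Ab1, 9 to 33 of H2-Eb1, 29 to 52 of H2-DMa and 111 to 246 of H2-DMb1. H2-DMb1 was the highest per length, at 3.35 ± 0.88 (SD, n = 6) CPM per kilobase, and it was above Cd74 in 6 of 6 libraries. Cd74 and H2-Ab1 followed at 1.28 ± 0.69 and 1.22 ± 0.25, and H2-DMa and H2-Eb1 at 0.69 ± 0.11 and 0.54 ± 0.22 (SD, n = 6) CPM per kilobase. Neither pair differed beyond its spread, with Cd74 above H2-Ab1 in 2 of 6 libraries and H2-DMa above H2-Eb1 in 4 of 6. The order thus differed from that in livers, where Cd74 was at 147 CPM per kilobase, although the tables were normalized separately and no test was made between them. Among the 15145 genes tested in PSCs, the 5 genes stood between the 8.9th and the 29th percentile of mean value. The cultures carried fibroblast genes at high levels (Col1a1 between 213908 and 463416 in deposited value, that is, reads divided by a size factor). Ptprc, the leukocyte marker CD45, was between 18.8 and 37.4. The 7 pan-leukocyte markers together summed to between 394 and 545 per library, against 264 to 424 for the 5 MHC class II genes. The cultures also carried mesothelial markers, with Msln between 2845 and 6472, Wt1 between 2510 and 4540 and Krt19 between 2882 and 6221. Macrophage markers were present too, with C1qa between 96.0 and 278 and the 10 listed markers summed to between 3101 and 4769. The 4 listed monocyte markers summed to between 1320 and 1915. The 4 B cell markers listed there summed to between 24.9 and 74.7, with Cd79a between 0 and 4.04. Which cells of the culture held the MHC class II RNA was not tested.

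PSCs treated with Yoda1 were compared with PSCs treated with DMSO to ask what PIEZO1 activation does to these cells. Only H2-DMb1 among the 5 listed genes had treatments that did not overlap. Its deposited values were 141, 143 and 112 with DMSO and 184, 202 and 193 with Yoda1, so each of the 3 preparations was higher with Yoda1, by 1.31-fold, 1.42-fold and 1.73-fold. On the log2(value + 1) scale the log2FC was 0.56 (SE 0.14, limma adjusted p of 0.076 over 15145 genes), and with the preparation in the model as a replicate block the adjusted p was 0.031. By an adjusted p under 0.05 alone, 4.66% of all genes passed without the block and 18.2% with it. The counting threshold also asks for a log2 fold change over 1, which 0 of the 5 genes reached, against 1.52% of all genes (230 genes). Groups did not overlap for 30% of all genes, and 22.7% had an unadjusted p under 0.05.

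For the other 4 genes the direction differed between preparations. With the replicate block their limma adjusted p lay between 0.57 and 0.88. Cd74 was at 87.3, 32.5 and 45.4 with DMSO and at 109, 37.9 and 43.3 with Yoda1, so that preparation 1 was the highest under both treatments. The log2FC of Cd74 was 0.15 (SE 0.51, limma adjusted p of 0.89), and its SE was 0.17 with the replicate block. H2-Ab1 was at 64.6 ± 18.3 (SD, n = 3) with DMSO and 67.4 ± 10.2 with Yoda1, and H2-Eb1 at 20.8 ± 10.0 and 21.4 ± 8.59 (SD, n = 3). H2-DMa, whose product pairs with that of H2-DMb1, averaged 37.8 ± 3.21 with DMSO against 36.7 ± 8.17 with Yoda1 (SD, n = 3; log2FC -0.06, SE 0.23). The reads of H2-DMb1 per read of H2-DMa were 3.42, 4.10 and 3.00 with DMSO and 6.76, 4.92 and 4.63 with Yoda1, which do not overlap. An exact two-sided permutation test gave p = 0.1, the smallest that 3 against 3 can give. It shuffled libraries across preparations and so ignored their pairing, and no paired test of the ratio was run. How many other genes over H2-DMa lack overlap was not counted. The reads behind this ratio are few, with 29 reads of H2-DMa in the library of the highest value.

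**Figure D5:**
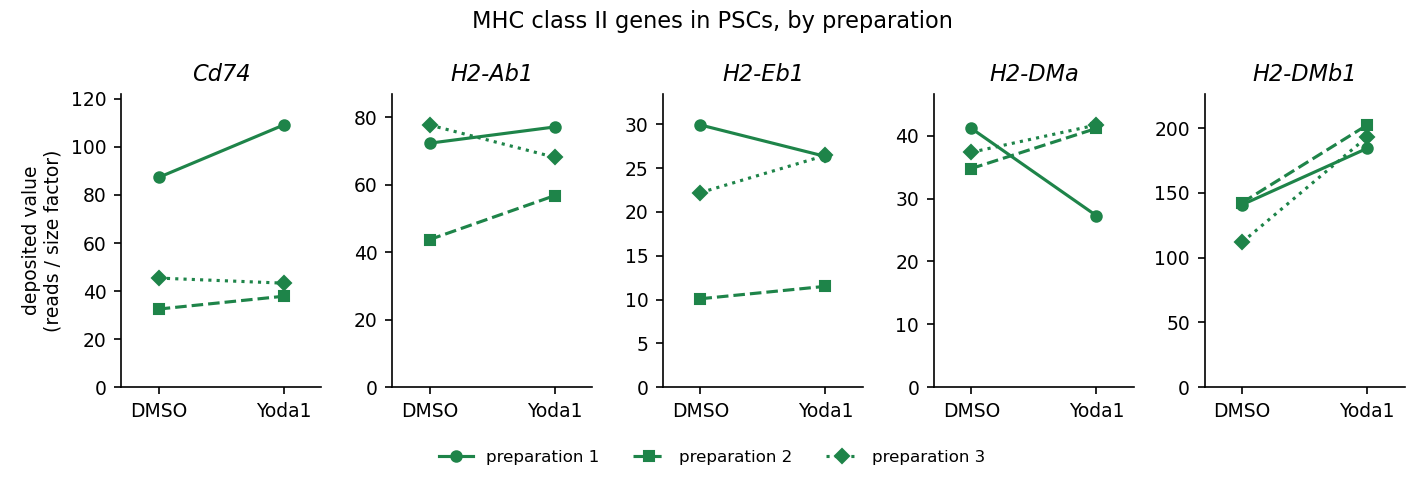
Deposited values (reads divided by a size factor, y axis from 0) of the 5 listed genes in PSCs with DMSO and with Yoda1, with a line for each of the 3 preparations. The lines of H2-DMb1 all go up, from 112 to 143 with DMSO to 184 to 202 with Yoda1, while the lines of the other 4 genes cross or differ in slope.

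Around these genes, PSCs expressed the general parts of the pathway. Of 13 tested class II pathway partners, 0 passed the counting threshold, and Ctsb, which encodes the protease cathepsin B, was at 15531 with DMSO and 21524 with Yoda1 (log2 fold change 0.47, adjusted p = 0.010 by limma). Rfx5, Rfxap and Rfxank, which encode the factor that binds the X box, were at 491 to 819, 464 to 596 and 231 to 314 in deposited value, although Ciita was not listed. Of 17 tested genes of the interferon-γ pathway 12 were above 0 (median 0.20), among them Irgm2 at 0.71, Iigp1 at 0.76 and Gbp3 at 0.62, none of them past the threshold. The 1 that passed was Cxcl10, a chemokine, at 264 with DMSO and 48.3 with Yoda1 (log2 fold change -2.61, adjusted p = 0.042 by limma). Of 21 class I genes 0 passed, with 17 above 0 and a median of 0.30, and H2-Q7 was at 72.6 with DMSO and 134 with Yoda1 (log2 fold change 0.88, adjusted p = 0.042 by limma). Of 6 tested genes of co-stimulation and inhibition 0 passed, and Cd274, which encodes PD-L1, stood at a log2FC of 0.98 (adjusted p = 0.051 by limma). Of 6 apCAF companion genes 0 passed, with Slpi at 0.48 and Clu the most abundant (62128 to 156178). Of 11 mesothelial markers 0 passed, with 8 below 0 and a median of -0.13, and Msln, at 3137 with DMSO and 6080 with Yoda1, stood at a log2FC of 0.96 (adjusted p = 0.010 by limma), while Muc16 had -1.24 (adjusted p = 0.17) and Lrrn4 had -1.56 (adjusted p = 0.29). Fibroblast and stellate markers had a median of -0.65, and 2 of 12 passed below 0, Col3a1 at -1.19 and Acta2 at -1.70. Of 9 tested macrophage markers 0 passed, with C1qc at -1.27 (adjusted p = 0.072 by limma), and of 6 pan-leukocyte markers 1 passed, Cd53 at 1.06 (adjusted p = 0.034 by limma), while the other 5 were below 0 (median of the 6 -0.13). Of the lists with few genes in the PSC table, 0 of 2 dendritic cell, 0 of 1 B cell and 0 of 4 monocyte markers passed, and the 1 T and NK cell marker tested, Trac, passed at -1.22. Of 5 liver endothelial markers 2 passed, Kdr at -1.07 and Lyve1 at 1.82, and of 8 acinar and endothelial markers 1 passed, again Kdr. Over the 6 PSC libraries, the genes whose log2 values were most like the mean of the 5 were Zim1 (Pearson's r 0.98), Gm14269, Kcnh6, AC120370.1, Gramd2, Capn11, Gm22486 and Zfp786 (0.95), all with low values. H2-DMa and H2-DMb1 did not share the pattern of the other genes there, with r of -0.28 and -0.04 against the mean of the others.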

How the data were processed

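For the livers the authors deposited counts of reads per gene, without normalization, with GRCm38 coordinates. Another 7 count columns, whose names match none of the described samples, were left out. For PSCs the authors deposited a normalized signal per gene, gene counts divided by 1 size factor per library. All 98886 values (100%) were whole multiples of 1 step per library (tolerance 0.01 read), so reads were recovered. The deposited fold changes and p-values of the authors' own comparison were not used. The submitters' processing notes name HISAT2 2.0.5 and Trim Galore, and the counting tool is not given in the sources used here.

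Counts of livers entered edgeR 4.0.16 under R 4.3.3 (TMM, its filter on low counts with minimum 10, robust quasi-likelihood fit of all 8 livers). PSC values were analyzed with limma 3.58.1 (trend, robust) on log2(value + 1), for genes that reached 10 in 3 or more libraries, because the unit was not counts. Genes were called at an adjusted p (Benjamini-Hochberg) under 0.05 where the log2 fold change also exceeded 1, up or down. DESeq2 1.42.0 and other alternatives are given in the closing section. Steps were tested on simulated data.

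Groups followed the labels. In PSCs, replicate numbers mark preparations given both treatments, and libraries of 1 preparation deviated together (correlations across genes of 0.43, 0.26 and 0.53). The members, lists and alternatives were chosen with earlier results of these data known. From each list, at most 4 genes with the smallest p per comparison were named, together with the 8 genes most like the members. Ifng, H2-Oa, H2-Ob, H2-DMb2, H2-Ea-ps and March8 in livers, the genes named only for their level in PSCs (Col1a1, Ptprc, Wt1, Krt19, C1qa, Cd79a, Clu and the Rfx genes) and the ratios fall outside this rule, and were picked once values were known. Depth limits what can be seen, and the limits given for counts of 0 cover counting error alone, since no molecular identifiers separate copies of a molecule.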

Additional observations from a re-analysis of the deposited data

How the results depend on the processing

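Under every alternative run, 0 of the members passed the threshold in any comparison. The number of all genes called moved more. For WT against TRPV4-KO it was 40, and 482 with DESeq2, 140 without a filter on low counts, 429 with the replicate block, 20 with only the groups compared, 325 with the sex term and from 3 to 722 with 1 liver left out (722 without TRPV4-KO replicate 3). For WT against GSK219 it was 0, and 73 with DESeq2, 8 without the filter, 9 with the block, 2 with only the groups compared, 4 with the sex term and from 0 to 2 with 1 liver left out. For TRPV4-KO against GSK219 it was 15, and 92 with DESeq2, 38 without the filter, 34 with the sex term and from 8 to 79 with 1 liver left out. For PSCs it was 230, and 452 with the replicate block, 387 with DESeq2 on recovered reads, 471 with the block in edgeR on recovered reads (chosen after seeing the data), 705 without the fold-change threshold and from 25 to 280 with 1 library left out. The causes were not tested. edgeR on the recovered PSC reads called 224.

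Of 156 log2 fold changes of members under alternatives that kept every library, 2 turned direction, those for WT over TRPV4-KO of H2-DMb1 (0.17) and Ciita (0.063) with the replicate block. No label says that liver numbers pair the animals, and no number marks a shared litter or day. The deviations of same-numbered livers had correlations from -0.48 to 0.58. These cannot settle the question, since the 2 WT livers deviate as mirror images of each other. With 1 library left out, 22 of 198 turned. For WT over TRPV4-KO, Cd74 ranged from -1.21 to 0.11, H2-DMa from -0.24 to 0.72, H2-DMb1 from -0.67 to 0.40 and Ciita from -0.89 to 0.36. For WT over GSK219, Cd74 ranged from -0.42 to 0.90, H2-Aa from -0.46 to 0.94, H2-Ab1 from -0.38 to 0.96, H2-Eb1 from -0.45 to 0.97 and H2-DMa from -0.032 to 0.94. For TRPV4-KO over GSK219, H2-DMa ranged from -0.089 to 0.44. In PSCs, Cd74 ranged from -0.31 to 0.54, H2-Ab1 from -0.16 to 0.24, H2-Eb1 from -0.34 to 0.46 and H2-DMa from -0.16 to 0.13. H2-DMb1 in PSCs stayed between 0.44 and 0.62, with an adjusted p from 0.018 (DESeq2 on recovered reads) to 0.25, under 0.05 in 3 of 13 fits.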
